A study of Mus musculus with 24 samples.

Results

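Retina and sclera of mouse eyes were compared miRNA by miRNA on 12 single-colour Agilent arrays, chosen by the tissue that opens each sample title: 6 retina arrays against 6 sclera arrays, of 24 arrays in the series. The other 12 held whole eye. All mice were C57BL/6J and 34 days old, and a frosted diffuser had covered the right eye for 10 days from postnatal day 24 to deprive it of form vision, which makes the eye elongate. The untreated left eye of the same animals served as control, so the control arrays are also from diffuser-wearing mice. Each tissue has 3 arrays titled control and 3 titled myopia, but for retina and sclera the source name and phenotype labels name the arms the other way round. The arms are therefore called titled control and titled myopia, and the tissue comparison gives both the same weight in each tissue, so that it does not depend on which reading is right. Per the labels, retina came from 9 mice, sclera from 9 and whole eye from 6, out of 15. Retina and sclera must then share mice, perhaps the same 9. Which animals an array held, and whether RNA was pooled, is not stated, so the arrays were tested as unpaired. The p-values therefore measure the spread between these arrays, which may be partly technical.

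MicroRNAs are short RNAs cut from a hairpin, and each hairpin can give a strand from its 5′ arm (5p) and a strand from its 3′ arm (3p). A miRNA finds its targets mainly through its seed, bases 2 to 8, so that miRNAs of the same seed can share targets. The retina is layered neural tissue that holds photoreceptors, interneurons, ganglion cells and glia. The sclera is the collagen-rich outer coat made by fibroblasts, and a dissected sclera can carry neighbouring choroid, vessels, muscle insertions and conjunctiva. In bulk tissue, more cells of a type and more of a miRNA per cell cannot be told apart.

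Of the 400 miRNAs tested, 301 matched a mature sequence by name in RefSeq (GRCm38.p6). The sequences below carry the main differences, written 5′ to 3′ with the seed in capitals. The first set led the miRNAs higher in retina; miR-96-5p and miR-182-5p come from the same cluster and their seeds agree up to the last base.
miR-129-2-3p: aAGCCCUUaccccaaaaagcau
miR-9-5p: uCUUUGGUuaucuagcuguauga
miR-96-5p: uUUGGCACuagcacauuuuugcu
miR-182-5p: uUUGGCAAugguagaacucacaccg
miR-183-5p: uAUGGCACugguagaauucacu
miR-181a-5p: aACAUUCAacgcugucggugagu

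The next set led the miRNAs higher in sclera. Both strands of miR-199a are shown because both were among the largest differences, and both strands of miR-214 because they went opposite ways.
miR-199a-5p: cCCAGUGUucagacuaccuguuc
miR-199a-3p: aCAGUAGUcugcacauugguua
miR-214-3p: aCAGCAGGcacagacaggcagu
miR-214-5p: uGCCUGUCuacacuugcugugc
miR-133b-3p: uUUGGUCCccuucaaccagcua
miR-223-3p: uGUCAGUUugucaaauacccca
miR-205-5p: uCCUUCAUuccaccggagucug

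The last set groups miRNAs that share a seed and yet differed between the tissues to unlike degrees or in opposite directions. The seed CAGUGCA is shared by 3 of them, AACAGUC by 2, AGUGCAA by 3, GAGAACU by 2 and AGCACCA by 3.
miR-152-3p: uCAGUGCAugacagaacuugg
miR-148a-3p: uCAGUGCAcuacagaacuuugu
miR-148b-3p: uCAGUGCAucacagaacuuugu
miR-132-3p: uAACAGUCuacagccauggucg
miR-212-3p: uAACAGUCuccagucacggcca
miR-130a-3p: cAGUGCAAuguuaaaagggcau
miR-130b-3p: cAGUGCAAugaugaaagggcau
miR-301a-3p: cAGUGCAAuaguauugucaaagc
miR-146a-5p: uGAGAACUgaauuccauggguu
miR-146b-5p: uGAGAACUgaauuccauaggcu
miR-29a-3p: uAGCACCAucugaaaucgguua
miR-29b-3p: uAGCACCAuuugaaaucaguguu
miR-29c-3p: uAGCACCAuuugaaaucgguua

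Of 696 mouse miRNAs on the array, 353 to 401 were detected on a retina array and 274 to 317 on a sclera array, which differed by 76.5 miRNAs on average (exact permutation test, two-sided, p = 0.00216, the smallest that 6 against 6 can give). Summed miRNA signal was 923568 to 1297320 intensity units in retina and 300959 to 580971 in sclera, while the labelling spike-in spots lay at 3606 to 4465 in retina and 2981 to 4124 in sclera (exact permutation p = 0.435). Levels were therefore scaled within each array: a scaled signal of 1 is the 75th percentile of 246 miRNAs that all 12 arrays detected. Because the differences depend on the choice of scaling, each call was repeated under 5 other scalings. Arrays correlated at r = 0.932 to 0.998 within retina, 0.956 to 0.995 within sclera and 0.626 to 0.781 between the tissues, across miRNAs. Sclera titled control replicate 3 was the dimmest array, with the fewest detected miRNAs, and retina titled control replicate 3 held more of the sclera-enriched miRNAs than the other retina arrays, as given below. The 3 slides are told apart here by scan time only. Each tissue and arm sat at its own array position on each slide, so position and group cannot be told apart.

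Most tested miRNAs differed between the tissues. Of 400 miRNAs detected on at least 4 of the 6 arrays of a tissue, 233 were higher in retina and 118 higher in sclera (limma on log2 scaled signal, Benjamini-Hochberg adjusted p under 0.05), or 87.8% in all, 58.2% higher in retina and 29.5% higher in sclera. The values of the 6 retina and 6 sclera arrays did not overlap for 295 of them (73.8%). A difference beyond 2-fold was called for 148 higher in retina (37%) and 64 higher in sclera (16%). Retina thus took 66.4% of the calls under this scaling, but 51.5% (170 against 160) when the percentile was taken over all miRNAs, 53.6% (180 against 156) after quantile normalisation, 60.5% (210 against 137) with the median, 83.7% (283 against 55) without scaling and 83.2% (277 against 56) when scaled on the spike-in spots. Another background correction (normexp with an offset of 50) turned the balance, with 51 higher in retina and 136 in sclera. The median difference of all 400 was 0.85 on the log2 scale here and ran from 0.12 to 1.94 over the scalings, so the balance of the directions is not settled by these data. Direction and call were the same under all 6 scalings for 161 miRNAs higher in retina and 55 higher in sclera (54%), and the results below lead with these. A further 253 miRNAs were detected on none of the 12 arrays, and 43 were detected on some but too few to be tested. Of the 400, 106 passed the detection rule only through retina and 21 only through sclera.

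**Figure D1:**
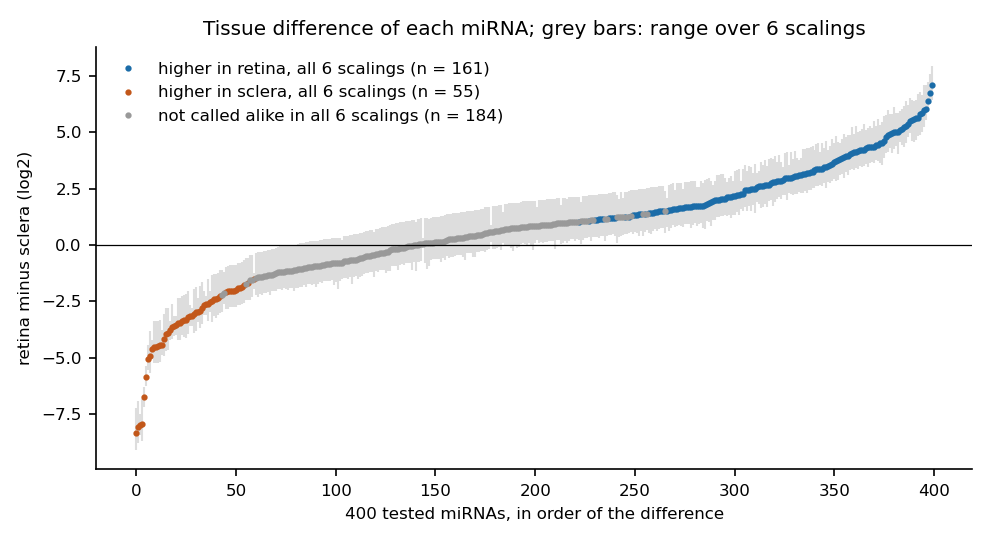
Retina minus sclera difference (log2, vertical axis) of the 400 tested miRNAs in order of that difference, with grey bars for the range over 6 scalings. The 161 blue points stayed higher in retina and the 55 orange points higher in sclera under every scaling, and the grey points in the middle did not keep a call.

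Most neuronal miRNAs were higher in retina. Of 10 tested members of the core neuronal list (miR-124, miR-9, miR-128, miR-129, miR-125b, miR-132 and miR-212), 8 were higher in retina under every scaling and 2 were lower, with a median difference of 4.49 (log2) against 0.85 for all tested. Of all 400 tested, 161 were higher in retina under every scaling, and 29.5% were higher in sclera under the scaling used here. miR-129-2-3p, from a hairpin on chromosome 2 (94081581 to 94081598 in mm9, as the files map its probe), had the largest retina excess among miRNAs detected on all 12 arrays. Its scaled signal was 4.94 at the lowest, 5.36 at the median and 5.68 at the highest in retina, and 0.0425, 0.0855 and 0.131 in sclera. The difference was 5.99 ± 0.23 (log2, SE; limma, adjusted p = 3.14e-09). miR-124-3p, a miRNA largely restricted to neurons, read 85.1, 86.7 and 94.9 in retina and 0.946, 5.02 and 6.35 in sclera, and the difference was 4.60 ± 0.45 (adjusted p = 4.44e-06). Its retina arrays were tight, whereas its sclera arrays spread from the low value of titled control replicate 3 upwards. miR-9-5p, which acts in neural progenitors and neurons, had 2.52, 2.70 and 2.86 in retina against 0.0672, 0.0918 and 0.139 in sclera, a difference of 4.87 ± 0.17. miR-9-3p, from the other arm of the same hairpins, differed by 4.23 and miR-128-3p by 3.26. miR-129-5p, from the other arm of miR-129, was detected on all 6 retina arrays, at 1.54 to 1.83, and on 3 of 6 sclera arrays; its fitted difference of 7.11 ± 0.52 leans on sclera values at the floor.

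The exceptions in this list were miR-125b-5p and miR-212-3p, which differed by -1.16 and -0.47. The first was lower in retina under each scaling in value (from -2.01 to -0.04) but not in every call, and the second changed sign with the scaling (-1.21 to 0.65). Among 11 tested miRNAs that differ between kinds of neuron, all were called higher in retina, 10 of them under every scaling. Their median was 2.86, beside 58.2% higher in retina and a median of 0.85 over all tested. miR-138-5p and miR-137-3p were detected on all 6 retina arrays and no sclera array. For such miRNAs the fold is a bound against a reference on each array. This is the highest of the miRNA's own reading, the array's lowest detected signal over all miRNAs and the floor of the fit. It is not the detection limit of the miRNA itself, so "at least" holds against this reference only. The bound was at least 24.5-fold for miR-138-5p (limma, adjusted p = 3.09e-09) and at least 16.6-fold for miR-137-3p (3.32e-09). Values at the floor carry no spread, so p-values given with bounds do not measure it in full. miR-181a-5p, abundant in inner retina, was at 5.37, 5.52 and 5.96 in retina and 0.460, 0.530 and 0.621 in sclera, a difference of 3.38 ± 0.07 (adjusted p = 2.76e-11).

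The sensory cluster miR-183, miR-96 and miR-182 is made as a unit in photoreceptors and other sensory cells, and its hairpins lie within RefSeq's Mirc35hg on chromosome 6 (30115933 to 30119733 in mm9). All 4 tested members were higher in retina under every scaling, beside 161 of all 400 tested, with differences between 4.10 and 5.14 (log2). miR-96-5p had scaled signals of 63.0, 72.6 and 91.0 in retina (lowest, median, highest) and 0.696, 4.72 and 6.18 in sclera, a difference of 4.46 ± 0.51 (adjusted p = 1.50e-05). miR-182-5p had 6.82, 8.12 and 8.93 in retina and 0.197, 0.554 and 0.797 in sclera. miR-183-5p had 29.9, 33.1 and 39.1 in retina and 0.770, 2.40 and 3.05 in sclera. No retina array overlapped a sclera array for any of them. In sclera, the median level of these 3 was 6.5% to 7.25% of the retina median, and that of miR-124-3p 5.79%, whereas miR-9-5p stood at 3.40% and miR-129-2-3p at 1.60%. Sclera titled control replicate 3 was the lowest array for miR-124-3p, miR-96-5p, miR-182-5p and miR-183-5p, at 0.958% to 2.42%. The part of retinal RNA in these sclera levels was not tested.

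Neuroendocrine miRNAs and several less studied ones were also higher in retina, some of them detected on no sclera array. miR-7a-5p, found in secretory and neuronal cells, was at 0.925, 0.999 and 1.02 in retina and 0.0162, 0.0257 and 0.0359 in sclera, a difference of 5.28 ± 0.19. miR-7b-5p was detected on all 6 retina arrays and no sclera array and was at least 35.4-fold higher in retina. miR-375-3p, known from pancreatic islets and other secretory cells, was also detected on all 6 retina arrays and on no sclera array. Its retina values were 0.227, 0.246 and 0.255, at least 38.7-fold higher (limma, adjusted p = 3.41e-13). All its sclera values stood at the floor, so this p-value holds no spread of the sclera arrays. miR-551b-3p, which lies within Egfem1 on chromosome 3 (29315802 to 29315821 in mm9), was at 0.397, 0.432 and 0.456 in retina, at least 47.4-fold higher. miR-384-5p, on chromosome X and with the miR-30 seed, was at least 36.1-fold higher. In all, 46 miRNAs were detected on every retina array and no sclera array. With normexp background correction the calls of miR-138-5p (0.25), miR-7b-5p (0.66), miR-375-3p (0.50) and miR-384-5p (0.46) were lost and the sign of miR-137-3p turned (-0.17). miR-204-5p and miR-211-5p, of the pigment epithelium and ciliary body, differed by less than the neuronal miRNAs: miR-211-5p by 1.51 ± 0.10, called under every scaling, and miR-204-5p by 0.91 ± 0.17, with overlapping arrays (10.3 to 14.6 in retina, 4.23 to 10.6 in sclera).

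**Figure D2:**
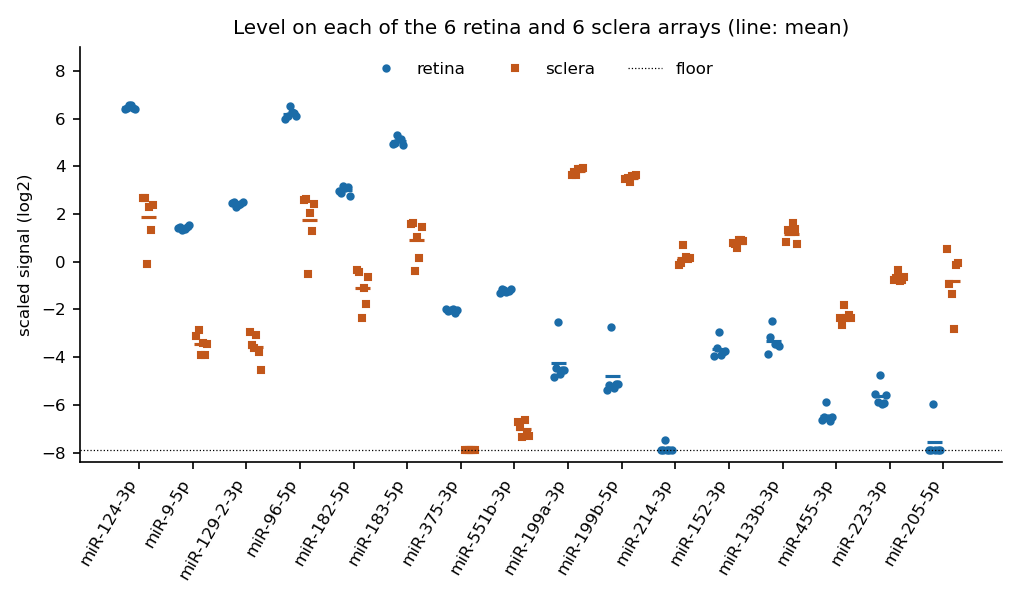
Scaled signal (log2) of 16 miRNAs on each of the 6 retina (blue circles) and 6 sclera (orange squares) arrays, with the mean as a line and the floor dotted. The first 8 miRNAs lay higher on every retina array and the last 8 higher on every sclera array; the lone high retina point of miR-199a-3p, miR-199b-5p and miR-205-5p is titled control replicate 3.

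The mesenchymal miRNAs miR-199 and miR-214 had the largest differences in the data. They are made in fibroblasts and other mesenchymal cells, and the hairpins of miR-214 and of a miR-199a copy lie in the opposite-strand transcript Dnm3os within Dnm3 on chromosome 1. miR-199a-3p read 12.3, 14 and 15.4 in sclera (lowest, median, highest) and 0.0346, 0.0431 and 0.175 in retina, a difference of -8.05 ± 0.34 (log2, SE; adjusted p = 5.91e-09). miR-199b-5p differed by -8.34 ± 0.39 and miR-199a-5p by -7.95 ± 0.32. The probes of miR-199a-3p map to 3 places in the genome, so its copies are not separated. miR-214-3p (164153578 to 164153590 on chromosome 1 in mm9) was detected on all 6 sclera arrays, at 0.916, 1.09 and 1.65, and on no retina array. It was at least 250.2-fold higher in sclera (limma, adjusted p = 2.30e-11). Its retina values stood at the floor except on titled control replicate 3, so this p-value holds little spread of the retina arrays. Retina titled control replicate 3 was the highest retina array for miR-199b-5p, miR-199a-3p and miR-199a-5p, at 1.23% to 1.29% of the sclera median against medians of 0.242% to 0.336% over the retina arrays. Of 8 tested mesenchymal miRNAs, 7 were higher in sclera under every scaling and 1 higher in retina, with a median of -6.21. Over all 400 tested, 55 were higher in sclera and 161 higher in retina under every scaling (29.5% and 58.2% under the scaling used here), with a median of 0.85. miR-152-3p, inside the coatomer gene Copz2, differed by -4.47 ± 0.15 and miR-10b-5p, from the Hoxd cluster, was at least 13.3-fold higher in sclera. The 1 that went the other way is miR-214-5p, taken up with the uneven miRNAs below.

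Cartilage-linked miRNAs were higher in sclera without exception. miR-140, which lies within Wwp2, and miR-455, within the fibrillar collagen gene Col27a1, are both known from chondrocytes. All 4 tested strands were higher in sclera under every scaling, with a median difference of -3.02. miR-455-3p was at 0.161, 0.196 and 0.285 in sclera and 0.00972, 0.0108 and 0.0169 in retina, a difference of -4.16 ± 0.16. miR-140-3p differed by -2.39 and miR-140-5p by -2.0. The growth-linked cluster on chromosome X (miR-322, miR-503, miR-450 and miR-542) was likewise higher in sclera for 7 of 7 tested members under every scaling. Its median was -3.14. Over all 400 tested miRNAs, 55 were higher in sclera under every scaling (29.5% under the scaling used here) and the median was 0.85. miR-503-5p was detected on all 6 sclera arrays and no retina array, at least 11.9-fold higher. Also seen on all sclera and no retina arrays was miR-675-3p, made from the imprinted growth regulator H19, at least 6.17-fold higher. In all, 9 miRNAs were detected on every sclera array and no retina array.

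The miR-29 family is known to repress collagen transcripts. Of 6 tested members 4 were called higher in retina, 3 under every scaling, and 2 were not called, with a median of 1.01, near the 0.85 and the 58.2% called higher in retina over all tested miRNAs. miR-29c-3p was at 14.9, 16 and 18.5 in retina and 1.41, 2.61 and 2.89 in sclera, a difference of 2.76 ± 0.17 (adjusted p = 1.20e-07). miR-29b-3p differed by 1.72 ± 0.20. miR-29a-3p was at 11.7, 12.2 and 12.5 in retina and 8.25, 10.3 and 10.6 in sclera, a difference of 0.30 ± 0.08 whose sign turned with the scaling (-0.45 to 1.42). The lowest sclera array for miR-29b-3p and miR-29c-3p was titled control replicate 3.

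Most muscle, vessel and blood miRNAs tested were higher in sclera, with miR-499-5p, miR-150-5p and miR-144-3p as exceptions. The skeletal muscle list had 5 of 6 tested members higher in sclera, 4 of them under every scaling. Its median was -3.98, beside 29.5% higher in sclera and a median of 0.85 over all tested. miR-133b-3p, on chromosome 1, was at 1.68, 2.42 and 3.05 in sclera and 0.0691, 0.0917 and 0.179 in retina, a difference of -4.50 ± 0.23. miR-1a-3p also differed by -4.50 and miR-133a-3p by -4.43, and miR-206-3p by -1.31 with overlapping arrays. miR-499-5p, from an intron of the myosin gene Myh7b, went the other way: it was detected on all 6 retina arrays, at 0.0558 to 0.0677, and on no sclera array, and was at least 9.44-fold higher in retina, but its difference turned to -0.67 with normexp background correction. Both smooth muscle miRNAs tested, miR-143-3p (-3.18) and miR-145-5p (-3.45), and both strands of the endothelial miR-126 (-1.70 for 3p, -1.42 for 5p) were higher in sclera. Of the blood miRNAs, miR-451 of red cells differed by -1.90, while miR-144-3p differed by -0.44 ± 0.31 and was not called. miR-223-3p of myeloid cells was at 0.578, 0.606 and 0.780 in sclera and 0.0160, 0.0189 and 0.0371 in retina, a difference of -4.94 ± 0.18 (adjusted p = 2.84e-09). miR-142-3p, found across white cells, differed by -2.99 and miR-146a-5p by -3.92, whereas miR-150-5p of lymphocytes was higher in retina by 0.55 with a sign that turned with the scaling (-0.29 to 1.67). How much of these differences lies in muscle, vessels or blood left on the dissected sclera was not tested.

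Most strands of the epithelial list, the miR-200 family, miR-203 and miR-205, were higher in sclera. Of 9 tested strands 7 were higher in sclera and 2, miR-200a-5p and miR-141-5p, higher in retina under every scaling. The median was -4.43, beside 0.85 over all 400 tested. Of these 400, 55 were higher in sclera and 161 higher in retina under every scaling, and 29.5% higher in sclera under the scaling used here. miR-205-5p, a miRNA of stratified epithelium such as conjunctiva and cornea, was at 0.141, 0.715 and 1.44 in sclera and was detected on 1 of 6 retina arrays, the difference being -6.76 ± 0.58. miR-200b-3p differed by -5.83. The retina values of both stood at the floor except on titled control replicate 3, so both differences lean on the floor. miR-200c-3p and miR-200a-3p were detected on every sclera array and no retina array, at least 23.9-fold and 32.8-fold higher. The sclera arrays varied widely for these miRNAs, with titled control replicate 1 the highest and titled myopia replicate 1 the lowest for miR-205-5p, miR-200b-3p, miR-200c-3p and miR-200a-3p. miR-184-3p, abundant in lens and cornea, spread from 0.0885 to 4.76 over retina arrays and from 1.0 to 8.06 over sclera arrays. Its difference of -2.21 ± 0.91 was called (adjusted p = 0.0422) but its groups overlapped, with the highest retina level on titled control replicate 3. miR-31-5p differed by -0.65 ± 0.48 and was not called.

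**Figure D3:**
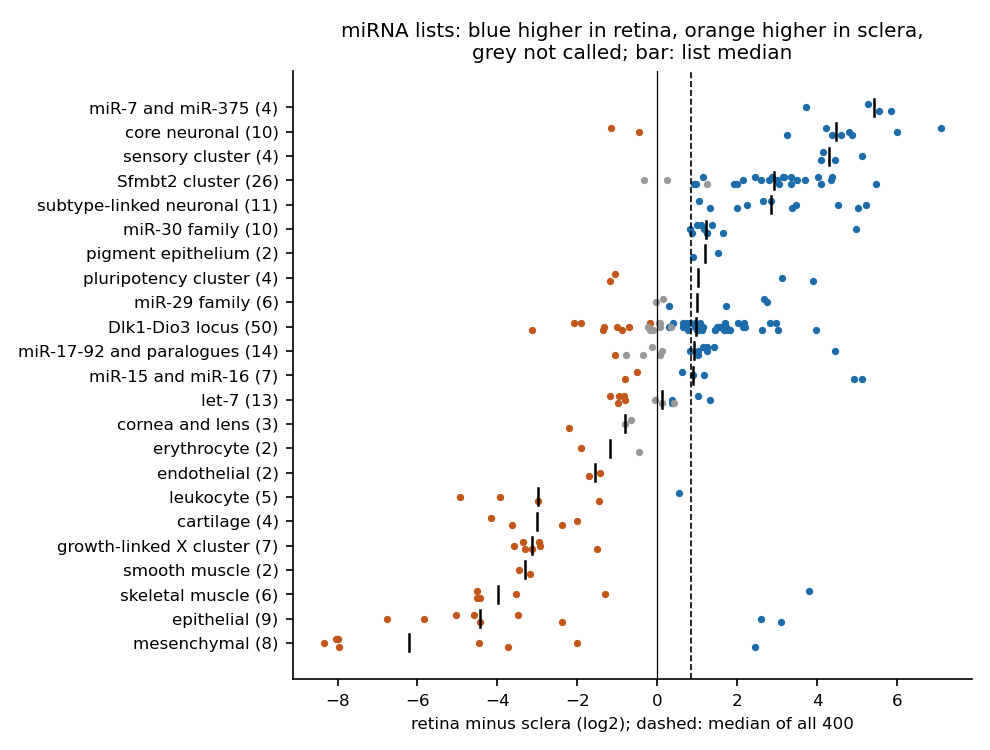
Retina minus sclera difference (log2, horizontal axis) of every tested member of 23 miRNA lists, with the number tested in brackets, a bar at each list's median and a dashed line at the median of all 400. Points are blue where called higher in retina, orange where called higher in sclera and grey where not called; the neuronal and sensory lists lie to the right and the mesenchymal, epithelial and muscle lists to the left.

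Widely expressed families lay closer to the middle. The let-7 family, found in nearly all differentiated cells, split into 5 members higher in retina, 5 higher in sclera and 3 not called of 13 tested. Over all tested, 58.2% were higher in retina and 29.5% higher in sclera. Only let-7g-5p kept its call under every scaling (1.32 ± 0.07). let-7b-5p differed by -0.98, let-7i-5p by -0.84 and let-7c-5p by -0.81, each with a sign that turned with the scaling. All 10 tested members of the miR-30 family were higher in retina, 6 under every scaling, with a median of 1.22, beside 58.2% and a median of 0.85 over all tested. miR-30b-5p led its abundant members with 1.64 and miR-30c-5p followed with 1.25. The miR-15 and miR-16 list had 5 of 7 members higher in retina and 2 higher in sclera, beside 58.2% and 29.5% over all tested. Among them were miR-16-5p (0.91) and miR-497-5p (-0.82), whose calls depended on the scaling. Among miRNAs detected on all 12 arrays, those whose 95% intervals stayed nearest to 0 were miR-154-5p (-0.06 to 0.19), let-7a-5p (-0.23 to 0.12) and miR-434-5p (-0.14 to 0.24), which holds for this scaling only. In the imprinted Dlk1-Dio3 locus on chromosome 12, 34 of 50 tested members were higher in retina, 9 higher in sclera and 7 not called, with a median of 0.98, beside 58.2%, 29.5% and 0.85 over all tested. miR-495-3p differed by 2.20 and miR-323-3p was at least 11.1-fold higher in retina, whereas miR-379-5p differed by -1.89, miR-411-5p by -2.08, and miR-299-3p was at least 8.71-fold higher in sclera, all 5 under every scaling, though miR-323-3p turned to -0.59 with normexp.

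Members of a seed family differed between the tissues to unlike degrees. Among miRNAs with a RefSeq sequence, 86 fell into 30 families of at least 2 tested members. Calls went in both directions in 8 families, and under every scaling in 1, the family of miR-148 and miR-152 (CAGUGCA). With normexp background correction its retina member miR-148b-3p turned to -0.18, which ended that split. The ratio of 2 miRNAs on the same array is unchanged by a scaling with a single factor per array, though not by quantile normalisation, which also gave 73 pairs. It was compared between tissues for the 81 same-seed pairs detected on all 12 arrays, a comparison added after the values had been seen. The ratio differed for 73 pairs (90.1%, limma, adjusted over pairs), and by more than 2-fold in point estimate for 36. With normexp it differed for 63. Since 87.8% of all tested miRNAs differed between the tissues, most pairs of any seeds may differ in ratio. Pairs of unlike seeds were not compared, so the share is not a trait of seed families. Pairs that share a member are not independent, and probes of near-identical miRNAs may take up each other's signal; neither was corrected for.

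miR-152-3p and miR-148b-3p share 19 of 21 bases counted from the 5′ end and lie inside the sister genes Copz2 and Copz1. miR-152-3p was at 1.48, 1.79 and 1.88 in sclera and 0.0650, 0.0732 and 0.129 in retina. miR-148b-3p was at 0.0599, 0.0873 and 0.0920 in sclera and 0.167, 0.190 and 0.216 in retina. The change of their ratio between the tissues was 5.69 ± 0.11 (log2, SE; adjusted p = 2.91e-13), with no overlap of arrays. miR-148a-3p sided with miR-152-3p, at -2.25. miR-132-3p and miR-212-3p are neighbours on chromosome 11 (74987231 to 74987246 and 74986953 to 74986966 in mm9), are induced by neuronal activity and are commonly taken to be made together. miR-132-3p was at 0.856, 0.881 and 1.01 in retina and 0.0358, 0.0445 and 0.0583 in sclera, a difference of 4.37 ± 0.10, whereas miR-212-3p was at 0.271, 0.305 and 0.366 in retina and 0.374, 0.402 and 0.691 in sclera. Their ratio differed by 4.84 ± 0.11 (adjusted p = 1.42e-12).

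In the AGUGCAA family miR-130b-3p differed by 3.39 ± 0.13 and miR-301a-3p by 2.03 ± 0.11 towards retina, and miR-130a-3p by -0.73 ± 0.11. The remaining member, miR-721, detected on 5 sclera arrays and 1 retina array, differed by -2.10. miR-130a-3p and miR-130b-3p match at 20 of 22 bases from the 5′ end, and their ratio differed by -4.11 ± 0.13, or by -0.79 and no longer called with normexp (adjusted p = 0.271 from limma). miR-146a-5p was higher in sclera by 3.92 on the log2 scale, and miR-146b-5p, of the same seed, differed by 1.37 ± 0.13 towards retina, a call not kept under every scaling and turned to -0.78 with normexp. In the AGCAGCA family miR-15a-5p differed by 1.17 and miR-322-5p by -2.93, a change of ratio of 4.10 ± 0.08. miR-29a-3p and miR-29c-3p, alike at 21 of 22 bases, changed in ratio by -2.46 ± 0.11. All 4 tested members of the miR-181 seed family were higher in retina, from 3.38 for miR-181a-5p through 2.25 for miR-181c-5p to 1.70 for miR-181d-5p. Over all tested miRNAs, 58.2% were higher in retina. Not every pair parted: the ratio of miR-103-3p to miR-107-3p differed by -0.08, with a 95% interval from -0.20 to 0.04.

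**Figure D4:**
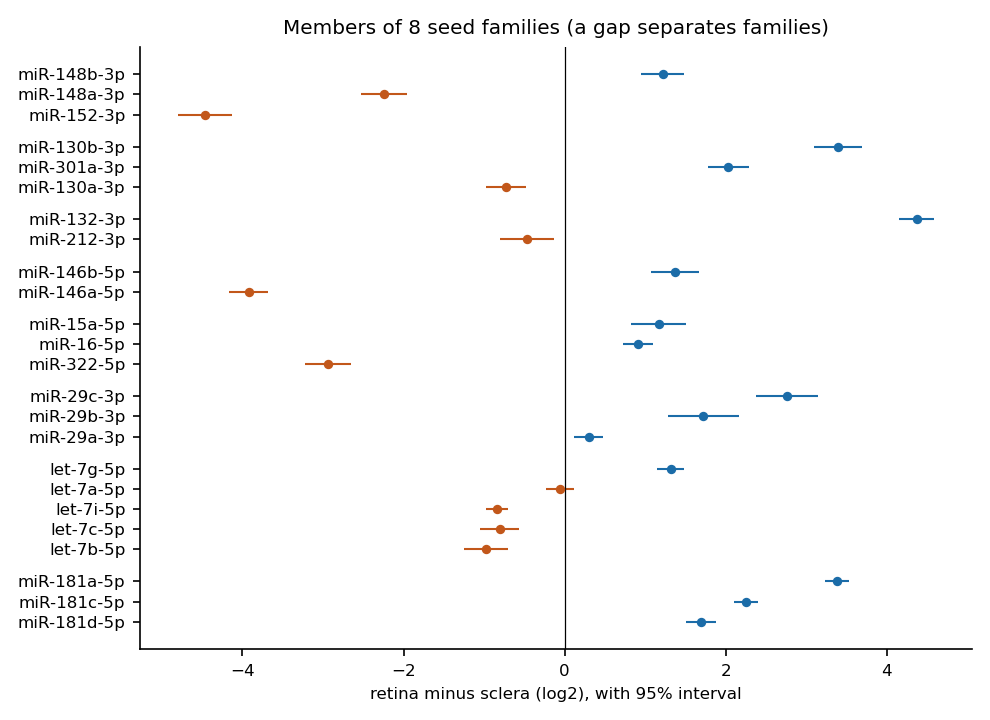
Retina minus sclera difference (log2, with its 95% interval) of the named members of 8 seed families, coloured by the sign of the difference. The families of miR-148 and miR-152, miR-130 and miR-301, miR-132 and miR-212, miR-146, miR-15, miR-16 and miR-322, and let-7 lie on both sides of 0; those of miR-29 and miR-181 lie on the retina side at different distances.

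Hairpin arms were compared next, since a 5p to 3p ratio within an array is likewise unchanged by a single factor per array. Of 26 hairpins with both arms detected on all 12 arrays, 12 differed in ratio between the tissues (46.2%), 7 with relatively more 5p in retina (26.9%) and 5 with relatively more 5p in sclera (19.2%), and for 10 the arrays did not overlap (38.5%). For miR-154, in the Dlk1-Dio3 locus, the log2 ratio of 5p to 3p ran from 1.92 to 1.99 over the retina arrays and from 3.26 to 3.71 over the sclera arrays, a difference of -1.51 ± 0.07 (limma, adjusted p = 1.68e-08). miR-154-5p itself was level between the tissues (0.06) and miR-154-3p was higher in retina by 1.57. The ratios may depend on the background correction and were not refitted with normexp. With it the differences of the arms miR-154-5p, miR-154-3p, miR-434-5p and miR-338-5p turned sign. From the same locus miR-376b (-1.10), miR-434 (-1.04), miR-411 (-0.74) and miR-337 (-0.71) moved the same way as miR-154, and miR-409 the opposite way (0.74). The log2 ratio of miR-125a ran from 4.58 to 5.08 in retina and from 3.03 to 3.65 in sclera, a difference of 1.29 ± 0.12. miR-22 (0.76) and miR-30b (0.66) changed in the same direction. miR-338 had the largest value, 2.15 ± 0.49, but its arrays overlapped. Both arms of miR-199a were far lower in retina, and their ratio differed by 0.10, with a 95% interval from -0.08 to 0.27. The count rose to 22 of the hairpins without sclera titled control replicate 3.

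Across all 63 hairpins with both arms tested, both were called for 48, in the same direction for 43 and in opposite directions for 5. For 3 the opposition held under every scaling: miR-214 (5p 2.44, 3p -7.98), miR-200a (5p 3.10, 3p -5.04) and miR-141 (5p 2.60, 3p -4.43). The 3p differences, and the 5p differences of miR-200a and miR-141, lean on values at the floor in the dimmer tissue. With normexp background correction all 3 of these 5p arms turned sign, to -0.29, -0.84 and -1.06, which ended the opposition. In each the arm that is usually the abundant product was a sclera miRNA and was not detected in retina, while the other arm was called higher in retina. miR-214-5p was detected on 5 retina arrays and all 6 sclera arrays, miR-200a-5p and miR-141-5p on 4 retina arrays and no sclera array. These 3 arms belong to a larger set described next.

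The retina calls included a set of miRNAs that were high on 4 retina arrays and low on the other 2. Of the 233 miRNAs called higher in retina, 58 varied by more than 4-fold between retina arrays, a limit chosen after the values had been seen. Their median spread was 20.6-fold, and that of the other 175 was 1.19-fold. Over all 400 tested, 79 varied by more than 4-fold between retina arrays. Of the 118 called higher in sclera, 10 varied by more than 4-fold between sclera arrays. In 57 of the 58, all but miR-188-3p, the lowest 2 arrays were titled control replicates 2 and 3. On those arrays miR-190b-5p read 0.210 and 0.0621 and on the other 4 it read 0.863 to 1.22. It was detected on no sclera array and was at least 73.4-fold higher in retina. miR-468-3p read 0.146 and 0.0486 on those 2 and 0.785 to 1.09 on the others, and miR-214-5p read 0.0427 and 0.0168 against 0.258 to 0.431. The largest bounds in retina came largely from this set: miR-190b-5p, miR-1927 (at least 56.7-fold), miR-468-3p (54.0-fold), miR-3099-3p (43.6-fold) and miR-466h-5p (36.5-fold), while miR-551b-3p, miR-375-3p and miR-384-5p were even. With normexp background correction miR-190b-5p (0.81), miR-1927 (1.22), miR-468-3p (0.65) and miR-466h-5p (0.17) were no longer called.

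The set, 58 of all 400 tested, also held 18 of the 26 tested miRNAs of the Sfmbt2 intron cluster. This is a rodent-specific repeat of miR-297, miR-466, miR-467 and miR-669 copies whose near-identical sequences the array may not separate. The Sfmbt2 list had 23 members higher in retina, 20 under every scaling, and a median of 2.93. Over all 400 tested, 58.2% were higher in retina, 161 miRNAs under every scaling, with a median of 0.85. The arms miR-16-1-3p (5.12) and miR-15a-3p (4.93) from the Dleu2 hairpins, miR-30c-1-3p (4.97), miR-338-5p (3.22) and miR-294-3p (3.9), of the early embryonic cluster on chromosome 7, were in the uneven set too. In sclera, miR-16-1-3p, miR-15a-3p and miR-30c-1-3p stood mostly or wholly at the floor, so their differences lean on it. By sequence, where known (39 of the 58), G and C made up 52.4% of bases at the median against 45.5% for the other retina calls, and G and U 59.1% against 52.2%. Of the 58, 48 were detected on no sclera array, and 55 were among the 161 retina calls that held under every scaling.

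The bright corner control spots, which carry no mouse miRNA probe in the files, were also dimmest on those 2 of the retina arrays. Their mean signal was 196 and 248 on retina titled control replicates 2 and 3, 373 to 576 on the other 4 retina arrays and 104 to 163 on sclera arrays, a 2.84-fold tissue difference (exact permutation test on log2 signal, p = 0.00216; 0.00361 adjusted over 15 control and array measures). The tissue difference was not particular to the corner spots. The control spots hur_1, hur_2, hur_4, hur_6 and mr_1 were 2.39- to 3.42-fold brighter in retina, and summed miRNA signal 2.37-fold. The control spots dmr_285, dmr_31a, dmr_3, dmr_6 and SCorner3 differed by at most 1.07-fold. The negative control spots were alike, at 2.01 to 3.30 in retina and 1.74 to 3.34 in sclera (exact permutation p = 0.515). Whether the corner signal and the set share a source was not tested. Without those 2 retina arrays the counts were 232 higher in retina and 123 higher in sclera.

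**Figure D5:**
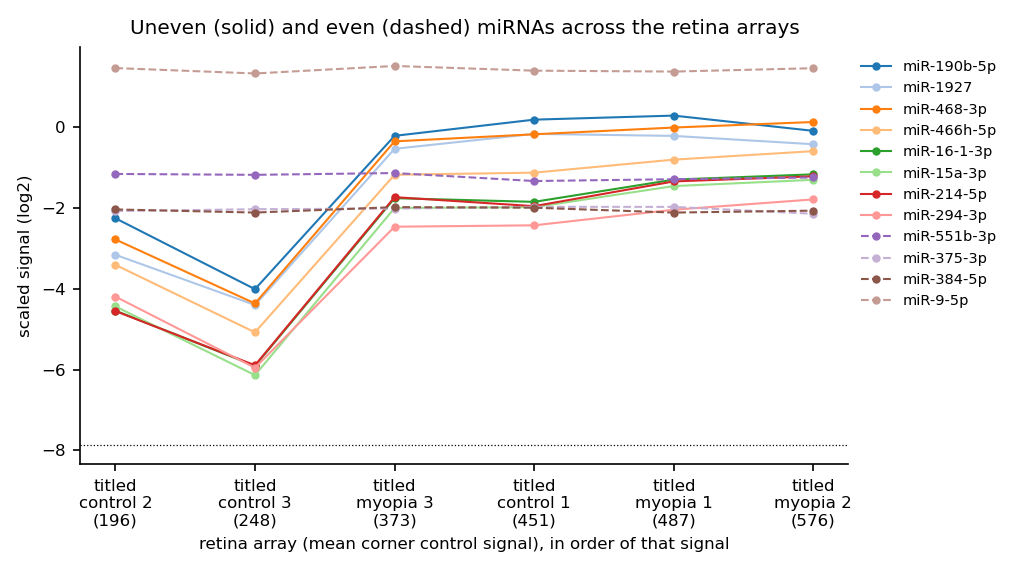
Scaled signal (log2) of 12 miRNAs on the 6 retina arrays, ordered by the mean corner control signal in brackets. The 8 solid lines (uneven miRNAs) lie lowest on titled control replicates 2 and 3; the 4 dashed lines (miR-551b-3p, miR-375-3p, miR-384-5p and miR-9-5p) are level across all 6.

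Neighbouring hairpins were compared by their genome position. Among tested miRNAs with a single mapped place, 34 clusters of hairpins within 10 kb were formed, holding 156 miRNAs. All members were called higher in retina in 10 clusters and higher in sclera in 7, and calls went both ways in 8, or 3 under every scaling. Of all tested miRNAs, clustered or not, 58.2% were higher in retina and 29.5% higher in sclera. Clusters wholly higher in sclera included miR-23a with miR-27a and miR-24-2 on chromosome 8 (median -2.77), miR-221 with miR-222 on chromosome X (-1.67) and miR-143 with miR-145 (-3.32). The miR-182 cluster had a median of 4.30. The 3 clusters split under every scaling were both miR-200 clusters, through the uneven 5p arms, and the large Dlk1-Dio3 block of 38 miRNAs, with 14 higher in retina and 4 higher in sclera.

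The tissue difference was also compared between the arms. Which arm a title names would turn the sign of such a difference, not its size. No miRNA passed the test of a different tissue difference in titled myopia and titled control (limma interaction, 0 of 400, 0%, smallest adjusted p = 0.495), and 39 had an unadjusted p under 0.05. With retina titled control replicate 1 left out, 53 passed, 52 of them in the direction of a larger retina excess in titled myopia. Of the 53, 37 were in the uneven set, which held 58 of all 400 tested. The retina titled control arm then consisted of replicates 2 and 3.

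Whole eye, which contains both tissues, was set beside both. Of the 216 miRNAs called under every scaling, whole-eye arrays had a mean level between retina and sclera for 194, above both for 8 and below both for 14 in a fit of all 24 arrays. Of the 99 that were also detected on all 24 arrays, 92 lay between. miR-205-5p was an exception, at -0.12 (log2) in whole eye against -0.89 in sclera and -7.42 in retina on that scale. For 279 called miRNAs with at least 2 probes of mean signal over 20 in a tissue, every such probe showed the direction of its miRNA in all 279. The miRNA's level is the sum of its probes and only called miRNAs were kept. Such agreement is therefore largely fixed in advance and is no separate test of the calls.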

How the data were processed

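Total RNA was hybridised to Agilent mouse miRNA arrays with 1 colour, and the authors deposited scanner intensity values from Feature Extraction (version 11, per the submitters' processing notes), mapped to mm9 per the file headers. The deposited processed intensity is already background-subtracted; spots of each miRNA were summed over all its probes here. Sums were scaled to the 75th percentile of the miRNAs that all 12 arrays detected, floored at -7.88 (log2) and tested with limma 3.58.1 in R 4.3.3 (4 groups, both arms weighted equally, Benjamini-Hochberg, adjusted p under 0.05), and against a 2-fold difference with treat. A deposited table of log2 values served as an alternative. Python 3.11.15 and scipy 1.17.1 gave exact permutation tests. The fits were tested on simulated data.

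The named miRNAs are the 10 largest differences each way among those detected on all 12 arrays, the 8 largest bounds each way (ranked before the floor of the fit was applied to them, a step added after seeing the data), up to 4 members of each list by adjusted p and up to 2 against it, the 3 nearest 0, up to 5 strand ratios each way and up to 5 by arm. The members and lists were chosen with earlier results of these data known, and miRNAs of the seed, uneven and opposite-strand passages after their values were seen. Alternatives were other scalings, background correction, detection rules, the slide as a block, same-numbered arrays of an arm as pairs, single slides and arrays left out.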

Additional observations from a re-analysis of the deposited data

Results flagged for a closer look

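In 47 of the 219 sets of 6 arrays checked, 1 array lay farther from the rest of its tissue than Dixon's 95% limit allows (0.625 of the range). Chance gives this in about 1 of 20 sets only for independent, normally spread values. Sets in which the other 5 arrays stood at the floor pass the limit by construction, and miRNAs on the same array are not independent. The 47 therefore cannot be set against that rate. The values below are log2 scaled signals, or log2 ratios of 5p to 3p where named so, and those near -7.88 lie close to the floor. Sclera titled control replicate 3 lay above the other 5 arrays for miR-468-3p (-4.48), miR-466h-5p (-5.73), miR-223-3p (-0.36), miR-15a-3p (-7.52), miR-125b-5p (4.91) and miR-212-3p (-0.53). It lay below the other 5 arrays for miR-455-5p (-4.34), miR-142-3p (-3.63), miR-299-3p (-5.96), miR-503-5p (-4.96), miR-29b-3p (-0.079), miR-29c-3p (0.50), miR-15a-5p (-0.39), miR-434-5p (-4.16), miR-411-5p (-2.78), miR-148a-3p (0.14), miR-148b-3p (-4.06) and miR-146b-5p (-5.95). It lay above the other 5 arrays in the 5p to 3p ratio of miR-337 (0.35). It lay below the other 5 arrays in the 5p to 3p ratio of miR-30b (3.59), miR-434 (-3.54) and miR-411 (1.42). Retina titled control replicate 3 lay above the other 5 arrays for miR-204-5p (3.87), miR-199b-5p (-2.73), miR-199a-3p (-2.51), miR-199a-5p (-4.64), miR-214-3p (-7.47), miR-152-3p (-2.95), miR-455-3p (-5.89), miR-143-3p (-3.17), miR-223-3p (-4.75), miR-322-5p (-3.32), miR-200b-3p (-7.17), miR-205-5p (-5.95) and miR-130a-3p (2.06). Sclera titled control replicate 1 lay above the other 5 arrays for miR-190b-5p (-7.30). It lay below the other 5 arrays for miR-338-5p (-7.27). It lay below the other 5 arrays in the 5p to 3p ratio of miR-338 (-5.76). Sclera titled control replicate 2 lay above the other 5 arrays for miR-499-5p (-7.45). It lay above the other 5 arrays in the 5p to 3p ratio of miR-22 (-6.56). Retina titled myopia replicate 2 lay above the other 5 arrays for miR-200a-3p (-7.47) and miR-141-3p (-7.80). Sclera titled myopia replicate 2 lay above the other 5 arrays for miR-30c-1-3p (-7.15) and miR-323-3p (-7.50). Retina titled control replicate 1 lay above the other 5 arrays for miR-132-3p (0.018). Sclera titled myopia replicate 1 lay below the other 5 arrays for miR-10b-5p (-4.73). Retina titled myopia replicate 3 lay above the other 5 arrays in the 5p to 3p ratio of miR-125a (5.08).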

How the results depend on the processing

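The direction and call of most named miRNAs held under most alternatives, and the cause of each change below was not tested except where stated. With normexp background correction 187 miRNAs were called (51 higher in retina, 136 in sclera) and 30 beyond 2-fold (14 and 16); it adds an offset of 50 before dividing by a factor that is lower on sclera arrays, which by construction lifts dim sclera values. Signs then turned for miR-137-3p -0.17, miR-214-5p -0.29, miR-499-5p -0.67, miR-150-5p -0.93, miR-200a-5p -0.84, miR-141-5p -1.06, let-7a-5p 0.44, miR-30c-1-3p -0.35, miR-16-1-3p -0.16, miR-15a-3p -0.25, miR-294-3p -0.30, miR-154-5p -0.023, miR-154-3p -0.29, miR-434-5p -0.90, miR-323-3p -0.59, miR-148b-3p -0.18, miR-146b-5p -0.78, miR-338-5p -0.29 and miR-103-3p/miR-107-3p ratio 0.023. The series value table called 130 beyond 2-fold, with turned signs for let-7a-5p 0.0061 and miR-434-5p -0.16. Testing only miRNAs detected on all 12 arrays, which are fewer, left 215 calls and 95 beyond 2-fold. Within slide 3 there were 195 and 74. With all 24 arrays 2 miRNAs passed the test by arm. The corner difference within slides was 1.65, 1.35 and 1.52 (log2), where 2 against 2 arrays cannot pass the threshold.

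Signs turned with the percentile over all miRNAs for miR-150-5p -0.19, miR-29a-3p -0.45, miR-154-5p -0.68 and miR-434-5p -0.70; with quantile normalisation for miR-150-5p -0.29, miR-154-5p -0.25 and miR-434-5p -0.76; and with the median for miR-29a-3p -0.070, miR-154-5p -0.31 and miR-434-5p -0.32. Without scaling they turned for miR-144-3p 0.56, miR-31-5p 0.47, let-7a-5p 1.06, let-7b-5p 0.14, let-7c-5p 0.31, let-7i-5p 0.28, miR-497-5p 0.30, miR-212-3p 0.65 and miR-130a-3p 0.39. On the spike-in spots, a scaling chosen after seeing the data, they turned for miR-144-3p 0.46, miR-31-5p 0.40, let-7a-5p 0.99, let-7b-5p 0.070, let-7c-5p 0.24, let-7i-5p 0.21, miR-497-5p 0.23, miR-212-3p 0.58 and miR-130a-3p 0.32. Within slide 1 this held for miR-434-5p -0.13, within slide 2 for let-7a-5p 0.031 and within slide 3 for miR-144-3p 0.49 and miR-31-5p 0.092.

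Leaving out each array in turn gave 327 to 358 calls, 195 to 212 beyond 2-fold, 0 to 53 by arm, 12 to 22 strand ratios, 72 to 77 same-seed pairs, a difference of 71.2 to 81.3 detected miRNAs and of 1.37 to 1.68 in corner signal. Over these fits miR-154-5p ranged from -0.11 to 0.077 and miR-434-5p from -0.19 to 0.087, both negative without sclera titled control replicate 3. Leaving out groups of arrays was chosen after seeing the data. Without retina titled control replicates 2 and 3 the sign turned for miR-434-5p -0.023, and without replicate 3 of both titled controls for miR-154-5p -0.098 and miR-434-5p -0.19, with 23 strand ratios called. With the replicate block (slide) the counts were 349, 210, 0 by arm, 13 strand ratios and 73 same-seed pairs. Same-numbered retina and sclera arrays, of the same or the other titled arm, correlated at -0.37 to 0.28 in their deviations, above 0.1 in 5 of 12. These are deviations from means of only 3 arrays and cannot decide whether arrays share animals. The arrays were left unpaired because the labels do not pair them. With same-numbered arrays of an arm taken as pairs, 348 miRNAs were called and 198 beyond 2-fold. Signal over background limits the miRNAs detected in 1 tissue only to bounds.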
